A study of Mus musculus with 18 samples.

Results

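Ephrins, Slits and netrins are axon guidance cues, and the Eph, Robo, DCC and UNC5 proteins are the receptors that read them. All genes of these families were taken by symbol from the RNA-seq table (Eph receptors, ephrins, *Robo1* to *Robo4*, *Slit1* to *Slit3*, *Ntn1* to *Ntn5*, *Unc5a* to *Unc5d*, *Dcc*, *Ntng1* and *Ntng2*), with no use of their values. The rule found 40 of 55153 genes, namely 9 EphA receptors, 5 EphB receptors, 5 ephrin-A ligands, 3 ephrin-B ligands, 4 Robo receptors, 3 Slits, 4 secreted netrins, 5 netrin receptors and 2 netrin-G proteins.

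RNA-seq and Ribo-seq, which sequences the mRNA fragments protected by ribosomes, had been performed on E15.5 mouse cerebral cortex of 3 genotypes, with 3 libraries per genotype in each assay and 18 libraries in all. Control (Ctrl) cortices were labelled wild type. *F*-cKO cortices were labelled Fto(f/f, Emx1-cre) and *M*-cKO cortices Mettl3(f/f, Emx1-cre), and all samples carried the strain label C57BL/6, while the study's methods describe the floxed lines as C57/BL6 × 129. Whether Ctrl embryos carried Cre is not given in the sources used here. Fto removes N6-methyladenosine (m6A) from RNA and Mettl3 is the catalytic subunit of the complex that adds it. *Emx1*-Cre is active in dorsal cortical progenitors and their excitatory progeny, and is not active in interneurons born in the ganglionic eminences or in blood vessels, so both genes remained intact in part of the dissected tissue. The question was how loss of the m6A eraser or of the m6A writer changed RNA levels and ribosome occupancy, and the members are described here across both.

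Ephrin-A ligands are tethered to the membrane by a lipid anchor and mostly bind EphA receptors, whereas ephrin-B ligands span the membrane and mostly bind EphB receptors. Epha4 binds ligands of both classes, and either side of a contact can signal. Secreted Slits bind Robo receptors and repel growing axons. Netrin-1 attracts axons through DCC and repels them through UNC5 receptors, and in the developing cortex these systems also act on migrating neurons and on callosal, thalamocortical and corticofugal axons.

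The RNA-seq libraries held 18504094 to 22592406 counted reads and the Ribo-seq libraries 10973699 to 35853227. *Fto* RNA was 10.8, 11.2 and 8.37 FPKM (fragments scaled by transcript length and library size) in Ctrl and 3.26, 7.56 and 2.43 FPKM in *F*-cKO, and its footprints were 25.9, 22.0 and 17.6 RPKM (reads scaled in the same way) in Ctrl and 3.91, 2.11 and 4.04 RPKM in *F*-cKO, so both assays went with the label. *Mettl3* footprints were lower in *M*-cKO (6.78, 6.02 and 6.40 RPKM) than in Ctrl (9.16, 9.25 and 9.93 RPKM), but *Mettl3* RNA was higher (8.61, 7.82 and 8.34 FPKM compared to 5.84, 6.43 and 5.07 FPKM), so the RNA level of the whole gene did not follow the *M*-cKO label. The cortical markers *Emx1* (16.8 to 42.7 FPKM) and *Neurod6* (313 to 375 FPKM) were expressed in all RNA-seq libraries. The *F*-cKO replicate 2 Ribo-seq library stood apart from the other 8, and the edgeR counts and medians of the guidance genes that use it are given with and without it where *F*-cKO was compared.

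In Ctrl, 33 of the 40 genes had a mean RNA level of at least 1 FPKM and 17 of at least 10 FPKM. Levels between genes are per transcript length. The 3 ephrin-B ligands headed the order, with *Efnb3* at 54.8 ± 4.06 FPKM (SD, n = 3), *Efnb2* at 44.3 ± 3.49 FPKM and *Efnb1* at 36.5 ± 6.11 FPKM, and the libraries of the last pair overlapped. *Efna2* (26.2 ± 1.04 FPKM) and *Ntng2* (25.9 ± 1.15 FPKM) came next and did not differ beyond their spread, nor did *Ephb6* (23.2 ± 1.14 FPKM), *Epha4* (22.1 ± 1.81 FPKM) and *Efna3* (21.9 ± 1.08 FPKM). Of the receptors for secreted cues, *Unc5a* was the highest at 18.7 ± 0.965 FPKM. *Slit1* (11.5 ± 0.419 FPKM) was near its receptors *Robo2* (11.4 ± 0.752 FPKM) and *Robo1* (11.2 ± 0.314 FPKM). At the low end were *Robo3* (0.131 ± 0.0558 FPKM), *Epha1* (0.0857 ± 0.00900 FPKM) and *Ntn5* (0.0429 ± 0.0405 FPKM).

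The 300 bases around the annotated start (250 before and 50 after) are in the RefSeq promoter table of GRCm38.p6 for 35 of the 40 genes, in 40 windows. The GC box, GGGCGG on the strand of the gene or CCGCCC on the other, a core of the site bound by Sp1-type factors, was found in 27 of the 40 windows (67.5%), compared with 35.7% of all 32851 windows in the table. The member windows held a median of 20.5 CpG dinucleotides, compared with 7 over all windows. The windows of 5 genes whose RNA was called against Ctrl in both knockouts follow, *Efnb1* and *Unc5b* as genes that rose, *Epha6* and *Ntng1* as genes that fell, and *Epha4* as a gene that rose in one and fell in the other. Capitals mark each GC box, and a match describes the letters only. *Efnb1* (chrX:99135811-99136110, plus strand) has none, *Unc5b* (chr10:60831532-60831831, minus strand) has 3, *Epha6* (chr16:60605482-60605781, minus strand) has 2, and *Ntng1* (chr3:110143423-110143722, minus strand) and *Epha4* (chr1:77515039-77515338, minus strand) have 1 each.
Efnb1: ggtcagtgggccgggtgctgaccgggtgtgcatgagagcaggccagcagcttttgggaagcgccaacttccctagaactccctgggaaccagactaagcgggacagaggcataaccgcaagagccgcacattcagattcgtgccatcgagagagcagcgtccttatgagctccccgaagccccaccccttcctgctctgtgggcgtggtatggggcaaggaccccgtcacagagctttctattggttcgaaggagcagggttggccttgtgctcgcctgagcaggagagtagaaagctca
Unc5b: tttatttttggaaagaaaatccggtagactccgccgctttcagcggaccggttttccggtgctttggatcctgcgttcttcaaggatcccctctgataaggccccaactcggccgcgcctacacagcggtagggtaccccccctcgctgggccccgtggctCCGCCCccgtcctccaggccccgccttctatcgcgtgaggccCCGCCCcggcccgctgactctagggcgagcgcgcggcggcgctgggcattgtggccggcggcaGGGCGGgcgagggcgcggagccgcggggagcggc
Epha6: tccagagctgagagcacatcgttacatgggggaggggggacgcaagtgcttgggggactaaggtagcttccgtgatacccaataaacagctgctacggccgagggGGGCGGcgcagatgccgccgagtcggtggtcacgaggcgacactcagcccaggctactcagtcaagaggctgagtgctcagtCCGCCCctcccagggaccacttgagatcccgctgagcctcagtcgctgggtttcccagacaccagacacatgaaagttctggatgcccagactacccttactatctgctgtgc
Ntng1: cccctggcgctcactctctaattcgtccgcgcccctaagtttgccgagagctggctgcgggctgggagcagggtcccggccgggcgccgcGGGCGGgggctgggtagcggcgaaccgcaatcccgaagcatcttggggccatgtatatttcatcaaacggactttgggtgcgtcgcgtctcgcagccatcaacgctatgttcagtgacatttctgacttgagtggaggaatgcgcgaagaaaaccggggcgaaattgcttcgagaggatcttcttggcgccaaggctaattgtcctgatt
Epha4: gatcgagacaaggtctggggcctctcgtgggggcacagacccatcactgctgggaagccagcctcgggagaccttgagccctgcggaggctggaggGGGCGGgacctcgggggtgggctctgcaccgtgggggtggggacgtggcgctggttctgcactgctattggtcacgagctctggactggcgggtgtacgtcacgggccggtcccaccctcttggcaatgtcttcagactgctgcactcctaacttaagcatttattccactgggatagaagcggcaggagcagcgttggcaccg

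After a filter on low counts, 38 of the 40 genes were tested in RNA-seq, all but *Epha1* and *Ntn5*. Differences between groups are log2 fold changes ± SE from edgeR's quasi-likelihood test on the deposited counts, 3 libraries against 3, and a gene was called where its Benjamini-Hochberg adjusted *P* over the whole table was below 0.05. Compared to Ctrl, 14 guidance genes rose and 6 fell in *F*-cKO, 52.6% of those tested, where 21.1% of all 16944 genes tested were called (11.5% higher and 9.57% lower). In *M*-cKO 9 rose and 8 fell, 44.7% of those tested, where 29.6% of all 16968 genes were called (15.5% higher and 14.1% lower). The median difference of the tested members from Ctrl was 0.08 (*F*-cKO) and 0.05 (*M*-cKO), beside -0.01 for all genes in both. In counts after TMM scaling, all 3 knockout libraries lay above all Ctrl libraries for 14 members and below them for 8 in *F*-cKO (20.9% and 20.7% of all genes), and for 9 and 9 in *M*-cKO (22.6% and 22.3%). The same 3 Ctrl libraries serve both comparisons, so agreement between them is not counted here, and the knockouts were compared directly where a difference between them is described. That direct comparison called 7 members higher and 9 lower in *M*-cKO than in *F*-cKO, 42.1% of those tested, where 27.4% of all genes were called (13.1% higher and 14.3% lower). In bulk tissue, fewer cells of a type and less RNA per cell cannot be told apart. Of the 6 genes lower in *F*-cKO, 3 were called without Ctrl replicate 1, 2 without Ctrl replicate 3 and 3 without *F*-cKO replicate 2 (where 14.1%, 8.92% and 11.3% of all genes were called), while the number higher stayed between 10 and 14 when any library was left out.

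**Figure D1:**
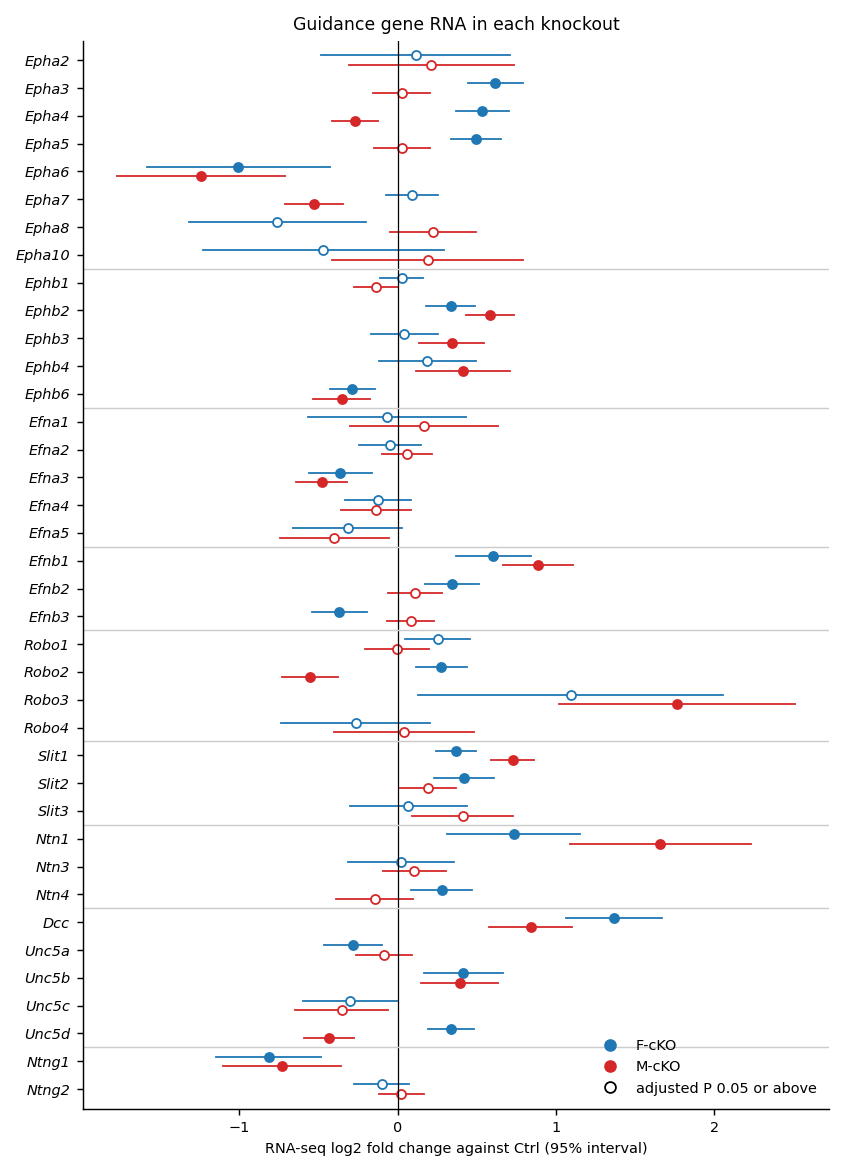
RNA-seq log2 fold changes of the 38 tested guidance genes in both knockouts compared to Ctrl, grouped by role, with bars for the 95% interval and filled points for an adjusted *P* below 0.05 (3 libraries per group, Ctrl libraries shared). *Dcc* and *Efnb1* lie to the right in both comparisons and *Epha6* and *Ntng1* to the left, while *Epha4*, *Robo2* and *Unc5d* lie on opposite sides of 0.

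Of the 3 ephrin-B ligands, 2 rose and 1 fell in *F*-cKO, and 1 rose in *M*-cKO. The summed RNA level of the 3 ephrin-B ligands was 126 to 142 FPKM in Ctrl, 147 to 160 FPKM in *F*-cKO and 169.5 to 178 FPKM in *M*-cKO, so the 3 groups did not overlap. *Efnb1*, which lies on the X chromosome (chrX:99136061-99149022) and is known from cortical progenitors, was at 39.4, 40.7 and 29.5 FPKM in Ctrl, 54.0, 58.1 and 55.8 FPKM in *F*-cKO and 65.3, 69.0 and 69.6 FPKM in *M*-cKO. The 3 groups of *Efnb1* values were fully separated, and the gene rose by 0.60 ± 0.11 in *F*-cKO (adjusted *P* = 0.0062) and by 0.89 ± 0.10 in *M*-cKO (adjusted *P* = 0.00013), with *M*-cKO above *F*-cKO by 0.27 ± 0.06 (adjusted *P* = 0.010). *Efnb2*, a ligand also known from arteries, was at 45.5, 47.0 and 40.4 FPKM in Ctrl, 61.0, 56.3 and 52.7 FPKM in *F*-cKO and 48.1, 51.8 and 44.3 FPKM in *M*-cKO. It rose in *F*-cKO by 0.34 ± 0.08 (adjusted *P* = 0.014, and 0.055 without Ctrl replicate 3), and its *M*-cKO values overlapped Ctrl with a difference of 0.11 ± 0.08. *Efnb3*, the neuronal ephrin-B that signals to corticospinal axons at the midline, was at 57.6, 50.1 and 56.5 FPKM in Ctrl, 45.3, 44.5 and 38.5 FPKM in *F*-cKO and 62.0, 57.5 and 55.6 FPKM in *M*-cKO. It fell in *F*-cKO by 0.37 ± 0.08 (adjusted *P* = 0.012) against the direction of the other two, and *M*-cKO exceeded *F*-cKO by 0.44 ± 0.07 (adjusted *P* = 0.0022).

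Of the 5 ephrin-A ligands only *Efna3* was called against Ctrl. Its levels were 21.7, 20.9 and 23.0 FPKM in Ctrl, 18.9, 17.6 and 15.03 FPKM in *F*-cKO and 15.02, 16.3 and 16.0 FPKM in *M*-cKO, so that every knockout library lay below every Ctrl library. It fell by 0.48 ± 0.07 in *M*-cKO (adjusted *P* = 0.00074) and by 0.36 ± 0.09 in *F*-cKO (adjusted *P* = 0.020), the latter missing the threshold without Ctrl replicate 1, Ctrl replicate 3 or *F*-cKO replicate 2 (adjusted *P* 0.054, 0.075 and 0.058). The other 4 differed from Ctrl by -0.40 to 0.17 in the 2 comparisons and overlapped Ctrl in each. *Efna1*, *Efna3* and *Efna4* are neighbours on chromosome 3.

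By summed RNA level, EphA receptors differed most between the knockouts, a ranking of the roles that was not tested. Their summed RNA level was 50.4 to 58.6 FPKM in Ctrl, 72.1 to 75.0 FPKM in *F*-cKO and 48.0 to 50.1 FPKM in *M*-cKO, a mean 1.36 times that of Ctrl in *F*-cKO and 0.914 times in *M*-cKO. *Epha4* (chr1:77367182-77515107), the promiscuous receptor that binds both ephrin classes, was at 24.1, 21.6 and 20.5 FPKM in Ctrl, 30.8, 31.3 and 34.6 FPKM in *F*-cKO and 18.05, 18.1 and 19.2 FPKM in *M*-cKO. No library of one genotype overlapped another. *Epha4* rose in *F*-cKO by 0.53 ± 0.07 (adjusted *P* = 0.0034) and fell in *M*-cKO by 0.27 ± 0.07 (adjusted *P* = 0.011, and 0.058 without Ctrl replicate 1), and the direct difference of *M*-cKO from *F*-cKO was -0.82 ± 0.07 (adjusted *P* = 7.9e-05).

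*Epha3* and *Epha5*, ephrin-A receptors used in topographic mapping, rose in *F*-cKO and were not called in *M*-cKO. *Epha3* was at 11.9, 9.88 and 9.78 FPKM in Ctrl, 16.4, 16.3 and 16.1 FPKM in *F*-cKO and 10.98, 11.4 and 10.01 FPKM in *M*-cKO. The *F*-cKO values of *Epha3* were tightly grouped above both other genotypes (0.62 ± 0.08 compared to Ctrl, adjusted *P* = 0.0029), and *M*-cKO lay below *F*-cKO by a difference of -0.60 ± 0.06 (adjusted *P* = 0.00021). *Epha5* was at 12.3, 10.2 and 11.5 FPKM in Ctrl, 16.2, 15.6 and 16.3 FPKM in *F*-cKO and 12.3, 12.1 and 10.5 FPKM in *M*-cKO. It rose by 0.49 ± 0.07 in *F*-cKO (adjusted *P* = 0.0036), with *M*-cKO different from *F*-cKO by -0.48 ± 0.07 (adjusted *P* = 0.0012). Against Ctrl, the *M*-cKO difference was 0.03 ± 0.08 for each of the pair, with 95% intervals of -0.16 to 0.21 for *Epha3* and -0.15 to 0.20 for *Epha5*.

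*Epha7*, which acts in the mapping of corticothalamic axons, was at 5.76, 5.20 and 6.10 FPKM in Ctrl, 6.33, 6.00 and 5.96 FPKM in *F*-cKO and 4.08, 4.19 and 3.64 FPKM in *M*-cKO. It fell in *M*-cKO by 0.53 ± 0.08 (adjusted *P* = 0.00097) with no overlap, and was 0.09 ± 0.07 from Ctrl in *F*-cKO. *Epha6* was low in all groups, at 0.802, 0.535 and 0.970 FPKM in Ctrl, 0.441, 0.398 and 0.315 FPKM in *F*-cKO and 0.342, 0.318 and 0.316 FPKM in *M*-cKO. All 6 knockout libraries were below the lowest Ctrl library, and *Epha6* fell by 1.24 ± 0.24 in *M*-cKO (adjusted *P* = 0.0031) and by 1.01 ± 0.26 in *F*-cKO (adjusted *P* = 0.024). The *F*-cKO call missed the threshold without Ctrl replicate 1 or 3 or without *F*-cKO replicate 2 or 3 (adjusted *P* 0.056 to 0.097). *Epha8* was not called against Ctrl, and was higher in *M*-cKO than in *F*-cKO by 0.97 ± 0.24 (adjusted *P* = 0.013).

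The EphB receptors, which read ephrin-B ligands in axon fasciculation and at synapses, summed to similar levels (59.8 to 59.996 FPKM in Ctrl, 59.4 to 61.8 FPKM in *F*-cKO and 59.7 to 66.6 FPKM in *M*-cKO) while single members rose or fell. *Ephb2* was at 14.6, 12.9 and 12.4 FPKM in Ctrl, 17.6, 16.8 and 16.3 FPKM in *F*-cKO and 20.9, 19.2 and 20.0 FPKM in *M*-cKO. These 3 groups did not overlap, with a rise of 0.34 ± 0.07 in *F*-cKO (adjusted *P* = 0.011) and of 0.58 ± 0.07 in *M*-cKO (adjusted *P* = 0.00016), and *M*-cKO above *F*-cKO by 0.24 ± 0.06 (adjusted *P* = 0.017). *Ephb6*, which lacks kinase activity, fell by 0.29 ± 0.06 in *F*-cKO (adjusted *P* = 0.015, and 0.058 without Ctrl replicate 3) and by 0.35 ± 0.08 in *M*-cKO (adjusted *P* = 0.0081). *Ephb3* and *Ephb4*, the latter a venous receptor for *Efnb2*, rose in *M*-cKO by 0.34 ± 0.09 (adjusted *P* = 0.017) and 0.41 ± 0.13 (adjusted *P* = 0.038). The *Ephb4* groups were only just separate in FPKM. The *Ephb4* call missed the threshold without Ctrl replicate 1 or 3 or *M*-cKO replicate 2 or 3 (adjusted *P* 0.079 to 0.12), as did that of *Ephb3* without Ctrl replicate 3 or *M*-cKO replicate 1 (adjusted *P* 0.056 and 0.058). *Ephb1* was not called against Ctrl (differences of 0.03 ± 0.06 and -0.13 ± 0.06).

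**Figure D2:**
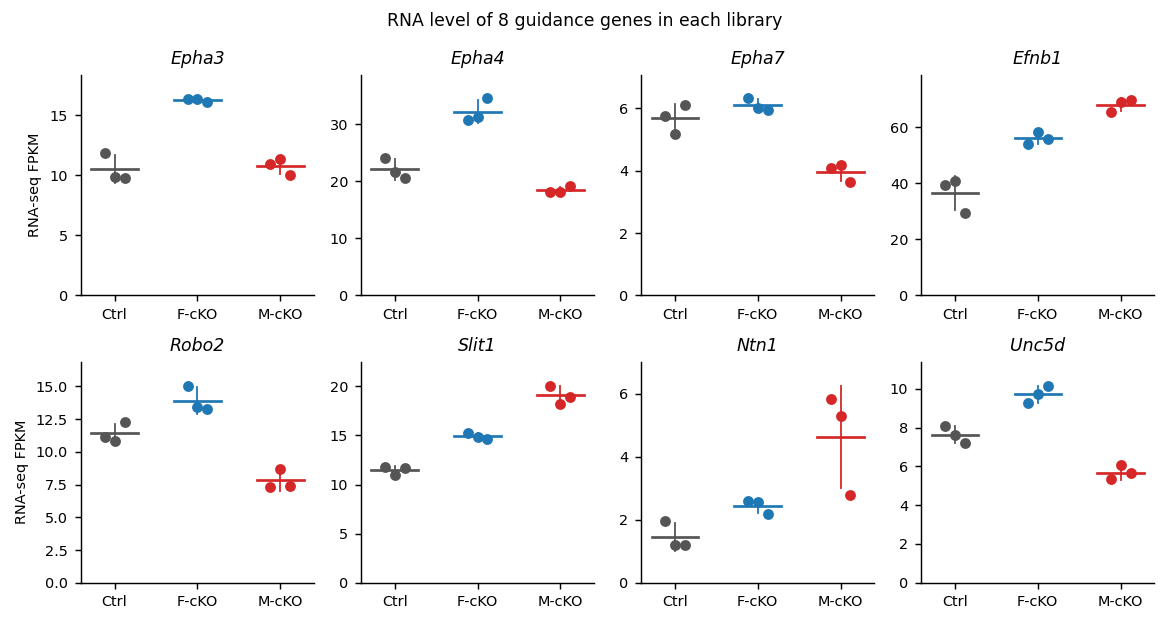
RNA-seq level (FPKM) of 8 guidance genes in each of 9 libraries, with points for libraries, horizontal lines for means and vertical lines for SD (n = 3). *Epha3* stood highest in *F*-cKO, *Efnb1* and *Slit1* were higher in *F*-cKO than in Ctrl and highest in *M*-cKO without overlap, and *Epha4*, *Robo2* and *Unc5d* were above Ctrl in *F*-cKO and below it in *M*-cKO.

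Of the Slits 2 rose in *F*-cKO and 1 in *M*-cKO, while 1 Robo receptor rose in *F*-cKO, and 1 rose and 1 fell in *M*-cKO. The summed Slit RNA was 14.3 to 14.8 FPKM in Ctrl, 17.9 to 18.8 FPKM in *F*-cKO and 21.7 to 23.9 FPKM in *M*-cKO, with means 1.27 and 1.58 times that of Ctrl, whereas the summed Robo RNA was 23.2 to 24.9, 26.1 to 31.2 and 18.5 to 23.1 FPKM. *Slit1* (chr19:41597824-41747275), the Slit most confined to the nervous system, carried most of this, at 11.8, 10.98 and 11.6 FPKM in Ctrl, 15.2, 14.8 and 14.6 FPKM in *F*-cKO and 20.1, 18.2 and 19.0 FPKM in *M*-cKO. *Slit1* had the smallest *P* of the members in *M*-cKO, with a rise of 0.73 ± 0.06 (adjusted *P* = 3.0e-05) beside 0.37 ± 0.06 in *F*-cKO (adjusted *P* = 0.0042), and its 3 groups did not overlap (*M*-cKO above *F*-cKO by 0.35 ± 0.06, adjusted *P* = 0.0025). *Slit2*, a repellent known from the midline, was at 1.21, 1.07 and 1.13 FPKM in Ctrl, 1.43, 1.51 and 1.65 FPKM in *F*-cKO and 1.33, 1.24 and 1.34 FPKM in *M*-cKO. It rose in *F*-cKO by 0.42 ± 0.09 (adjusted *P* = 0.010). In *M*-cKO all *Slit2* values were above Ctrl, but the difference of 0.19 ± 0.08 was not called (adjusted *P* = 0.10).

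*Robo2*, a main receptor for both Slits on cortical axons and progenitors, was at 11.1, 10.9 and 12.3 FPKM in Ctrl, 15.1, 13.4 and 13.3 FPKM in *F*-cKO and 7.34, 8.72 and 7.38 FPKM in *M*-cKO. The 3 groups did not overlap. It fell in *M*-cKO by 0.55 ± 0.08 (adjusted *P* = 0.00056) and rose in *F*-cKO by 0.28 ± 0.07 (adjusted *P* = 0.025), and *M*-cKO differed from *F*-cKO by -0.84 ± 0.08 (adjusted *P* = 0.00014). The rise in *F*-cKO missed the threshold without Ctrl replicate 1 or 2 or *F*-cKO replicate 1 or 2 (adjusted *P* 0.054 to 0.079). *Robo3*, the receptor that lets commissural axons cross the midline, was low, at 0.195, 0.0964 and 0.101 FPKM in Ctrl, 0.149, 0.271 and 0.433 FPKM in *F*-cKO and 0.605, 0.463 and 0.297 FPKM in *M*-cKO, from 30, 14 and 13 counts in Ctrl and 94, 64 and 45 counts in *M*-cKO. It rose in *M*-cKO by 1.76 ± 0.34 (adjusted *P* = 0.0029), with every *M*-cKO library above Ctrl. *Robo1* (0.25 ± 0.09 in *F*-cKO) and the endothelial *Robo4* were not called in either.

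Of the netrin genes, *Ntn1* (chr11:68209364-68386826), the diffusible cue that acts through DCC, showed the widest change in *M*-cKO after *Robo3*. It was at 1.96, 1.20 and 1.20 FPKM in Ctrl, 2.59, 2.55 and 2.18 FPKM in *F*-cKO and 5.83, 5.31 and 2.79 FPKM in *M*-cKO. All *M*-cKO libraries exceeded all others, with replicate 3 far below the other two. *Ntn1* rose by 1.66 ± 0.26 in *M*-cKO (adjusted *P* = 0.00087) and by 0.73 ± 0.19 in *F*-cKO (adjusted *P* = 0.023), the latter missing the threshold without Ctrl replicate 2 or 3 or *F*-cKO replicate 2 (adjusted *P* 0.070 to 0.085) or in a fit of all 3 genotypes (adjusted *P* = 0.052), and *M*-cKO exceeded *F*-cKO by 0.92 ± 0.22 (adjusted *P* = 0.013). *Ntn4*, a netrin of basement membranes, rose in *F*-cKO by 0.28 ± 0.09 at the edge of the threshold (adjusted *P* = 0.045), and this call was lost without any 1 of the 6 libraries (adjusted *P* 0.065 to 0.14), in DESeq2, with no filter on low counts and in a fit of all 3 genotypes (adjusted *P* 0.054 to 0.11). *Ntn3* was not called (differences of 0.02 ± 0.15 and 0.11 ± 0.09).

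Markers of the ganglionic eminences and their interneurons, where *Emx1*-Cre is not active, moved in the same libraries. All 12 listed markers rose in *M*-cKO RNA (median difference 1.30) and 7 of 12 rose in *F*-cKO (median 0.60), and their summed level was 89.5 to 91.9 FPKM in Ctrl, 88.1 to 126 FPKM in *F*-cKO and 132 to 183 FPKM in *M*-cKO. None of the 12 was at 0 in any RNA-seq library. The median log2 ratio of these markers to the Ctrl mean was 1.41, 1.52 and 0.90 in *M*-cKO replicates 1, 2 and 3. Of the genes that rose in *M*-cKO, *Ntn1*, *Robo3* and *Dcc* were also lowest in replicate 3 of that group. *Efnb1*, *Ephb3*, *Ephb4* and *Unc5b* were highest in it, and *Ephb2* and *Slit1* lay between. The part of this marker change in the change of *Ntn1*, *Robo3* or any other guidance gene was not tested. Of other markers, 5 of 10 for dorsal progenitors rose and 2 fell in *F*-cKO (3 and 2 in *M*-cKO), 4 of 8 for excitatory neurons rose in *F*-cKO (5 rose and 2 fell in *M*-cKO), and 5 of 8 for meninges and 4 of 10 for endothelium and pericytes fell in *F*-cKO (0 and 2 in *M*-cKO). Of 7 erythroid markers, 1 rose and 1 fell in *F*-cKO, and 1 rose in *M*-cKO. Of all genes, 11.5% were called higher and 9.57% lower in *F*-cKO, and 15.5% and 14.1% in *M*-cKO. Compared directly, 8 of 12 eminence, 5 of 8 meningeal and 5 of 7 erythroid markers were higher in *M*-cKO than *F*-cKO, and 0 lower. Of 10 dorsal progenitor markers, 1 was higher and 5 lower, where 13.1% and 14.3% of all genes were called.

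*Dcc*, the netrin receptor for attraction, had the widest change of the members in *F*-cKO. Its RNA was at 4.08, 3.45 and 2.81 FPKM in Ctrl, 7.90, 8.72 and 10.3 FPKM in *F*-cKO and 6.86, 5.94 and 5.87 FPKM in *M*-cKO. The 3 groups were separate, with a rise of 1.37 ± 0.14 in *F*-cKO (adjusted *P* = 0.0029) and of 0.84 ± 0.12 in *M*-cKO (adjusted *P* = 0.00047), and a difference of *M*-cKO from *F*-cKO of -0.54 ± 0.10 (adjusted *P* = 0.0043). These calls against Ctrl held in all 11 alternative settings. *Unc5d*, a repulsive receptor of multipolar and upper-layer neurons, was at 8.07, 7.60 and 7.19 FPKM in Ctrl, 9.24, 9.71 and 10.2 FPKM in *F*-cKO and 5.34, 6.06 and 5.64 FPKM in *M*-cKO. *Unc5d* rose in *F*-cKO by 0.34 ± 0.07 (adjusted *P* = 0.0087) and fell in *M*-cKO by 0.43 ± 0.07 (adjusted *P* = 0.0013), without overlap, and the direct difference was -0.78 ± 0.07 (adjusted *P* = 0.00011).

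*Unc5b*, known from vessels as well as neurons, rose in both knockouts, by 0.42 ± 0.11 in *F*-cKO (adjusted *P* = 0.028, missing the threshold without Ctrl replicate 1 or 3 or *F*-cKO replicate 1 with adjusted *P* 0.055 to 0.092) and by 0.39 ± 0.11 in *M*-cKO (adjusted *P* = 0.020, and 0.062 without Ctrl replicate 3 and 0.060 without *M*-cKO replicate 3). *Unc5a* fell in *F*-cKO by 0.28 ± 0.08 (adjusted *P* = 0.035), which was lost without any library but *F*-cKO replicate 1 (adjusted *P* 0.059 to 0.11), and *Unc5c* was not called. *Ntng1*, a lipid-anchored netrin-G that binds NGL-1 and not DCC, was at 1.10, 0.950 and 1.08 FPKM in Ctrl, 0.649, 0.534 and 0.612 FPKM in *F*-cKO and 0.764, 0.499 and 0.631 FPKM in *M*-cKO. All knockout libraries were below Ctrl, and *Ntng1* fell by 0.81 ± 0.15 in *F*-cKO (adjusted *P* = 0.0070) and by 0.73 ± 0.17 in *M*-cKO (adjusted *P* = 0.0081). Its relative *Ntng2*, at a far higher level, differed from Ctrl by -0.10 ± 0.08 and 0.02 ± 0.07.

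In Ribo-seq, 36 of the 40 genes had counts in all libraries, and *Epha1*, *Epha10*, *Ntn5* and *Robo3* did not. In the Ctrl order of footprint levels, *Epha4* led at 11.7 ± 0.912 RPKM (SD, n = 3), followed by *Efnb2* at 9.55 ± 0.704 RPKM and *Efnb1* at 8.82 ± 0.829 RPKM, which did not differ beyond their spread. *Dcc*, only in the middle of the RNA order, came next at 6.89 ± 0.664 RPKM.

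In *M*-cKO, 3 guidance genes rose in footprints and 0 fell of 35 tested (8.57%), where 14.6% of all 14314 genes were called (7.13% higher and 7.50% lower). At an unadjusted *P* below 0.05, 5 members were higher and 4 lower in edgeR (16.6% and 17.5% of all genes). With the adjusted *P*, DESeq2 called 4 of 36 higher and 0 lower, where it called 21.7% of all genes. The groups did not overlap for 6 higher and 4 lower members (18.4% and 21.0% of all genes). *Slit1* footprints were 3.86, 3.16 and 3.26 RPKM in Ctrl and 5.95, 5.76 and 5.34 RPKM in *M*-cKO, a rise of 0.74 ± 0.13 (adjusted *P* = 0.016). *Efnb1* footprints were 8.60, 9.73 and 8.11 RPKM in Ctrl and 15.3, 17.4 and 12.8 RPKM in *M*-cKO, a rise of 0.80 ± 0.16 (adjusted *P* = 0.020). *Ntn1* footprints were 0.257, 0.127 and 0.165 RPKM in Ctrl and 0.803, 0.735 and 0.363 RPKM in *M*-cKO, a rise of 1.79 ± 0.41 (adjusted *P* = 0.031) on 20 to 83 counts per library. For all 3 genes the groups did not overlap, and the footprint difference was within its SE of the RNA difference of the same gene. The 3 calls became 0 without Ribo-seq Ctrl replicate 2 or 3 and 1 without Ctrl replicate 1, where the share of all genes called fell as well, to 1.24%, 3.22% and 2.72%. Without *M*-cKO replicate 1 or 2 the call of *Ntn1* was lost as well (adjusted *P* 0.077 and 0.061, with 6.14% and 9.03% of all genes called). The 3 calls became 0 in a fit that pooled the spread of all 3 genotypes (adjusted *P* 0.28 to 0.64), where 0.244% of all genes were called. That fit holds Ribo-seq *F*-cKO replicate 2, and without that library the pooled fit called the same 3 genes (adjusted *P* 0.018 to 0.034) and 8.80% of all genes. The ganglionic eminence markers rose here too, in 8 of 12 cases (median 1.65, summed level 41.5 to 63.2 RPKM in Ctrl and 71.2 to 151 RPKM in *M*-cKO), with *M*-cKO replicate 3 the lowest of its group as for *Slit1*, *Efnb1* and *Ntn1*, and the part of these markers was not tested.

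*Epha4* footprints were 10.9, 12.7 and 11.5 RPKM in Ctrl and 10.6, 9.13 and 8.28 RPKM in *M*-cKO, with every *M*-cKO library below Ctrl and a difference of -0.31 ± 0.12 that was not called (adjusted *P* = 0.10, 95% interval -0.58 to -0.05). *Robo2* (-0.43 ± 0.19) and *Unc5d* (-0.29 ± 0.16), whose RNA fell, gave footprint differences of the same sign that were not called (adjusted *P* 0.15 and 0.25). *Ephb2* footprints were 3.18, 3.10 and 3.17 RPKM in Ctrl and 4.07, 8.44 and 3.98 RPKM in *M*-cKO, with replicate 2 far above the other libraries, and the difference of 0.83 ± 0.31 was not called (adjusted *P* = 0.10). *Dcc*, whose RNA rose in *M*-cKO, had footprints of 6.13, 7.18 and 7.35 RPKM in Ctrl and 7.54, 6.502 and 6.36 RPKM in *M*-cKO, which overlapped, with a difference of -0.01 ± 0.11 (95% interval -0.27 to 0.26).

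Translational efficiency (TE), here the footprint change beyond the RNA change, was tested as the interaction of assay and genotype over 12 libraries. *Dcc* was the 1 of 35 tested guidance genes called in *M*-cKO, where 3.07% of all 13208 genes were called (1.89% higher and 1.18% lower), with TE lower by a difference of -0.78 ± 0.18 (adjusted *P* = 0.034, 95% interval -1.16 to -0.40). The size was -0.66 to -0.82 whenever the call was lost, which was without RNA-seq Ctrl replicate 2 or 3, any RNA-seq *M*-cKO replicate or Ribo-seq Ctrl replicate 2 (adjusted *P* 0.065 to 0.094, with 0.491% to 1.09% of all genes called), or in a fit that pooled the spread of all 3 genotypes (adjusted *P* = 0.84, with 0.0829% of all genes called). Without Ribo-seq *F*-cKO replicate 2 in the pooled fit, *Dcc* was called (-0.78, adjusted *P* = 0.042), as were 1.73% of all genes. TE of *Epha4* differed by 0.02 ± 0.14, that of *Slit1* by 0.08 ± 0.13 and that of *Efnb1* by -0.02 ± 0.19, none of them called.

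**Figure D3:**
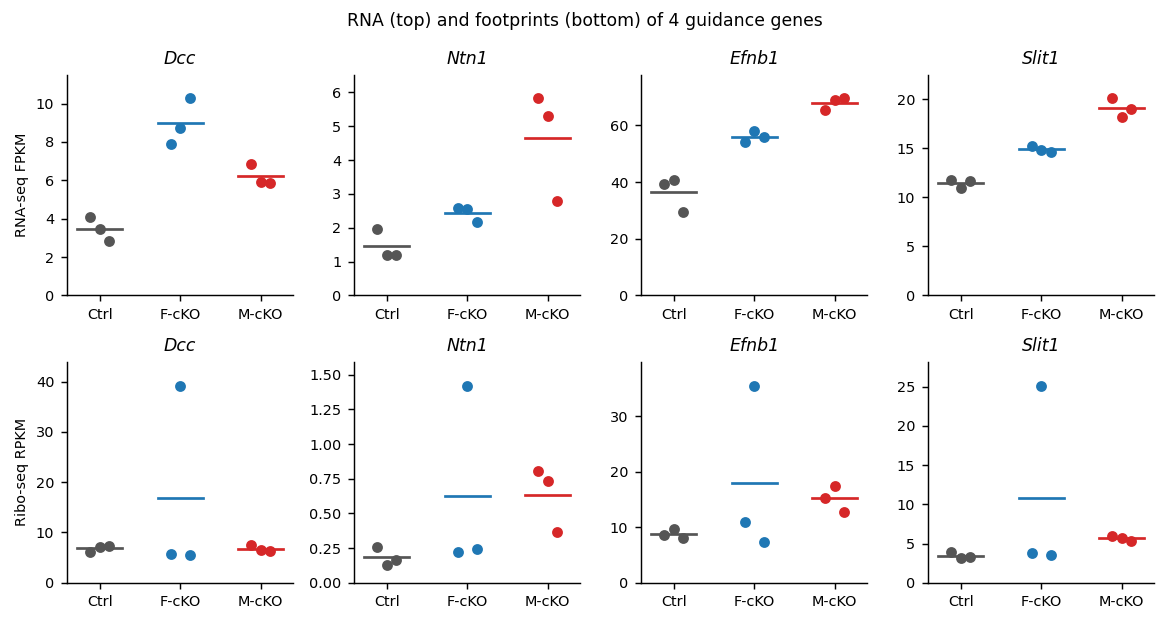
RNA-seq level (FPKM, top) and Ribo-seq level (RPKM, bottom) of *Dcc*, *Ntn1*, *Efnb1* and *Slit1* in each library, with points for libraries and lines for means (n = 3). *Ntn1*, *Efnb1* and *Slit1* were above Ctrl in *M*-cKO in both assays, *Dcc* was above Ctrl in RNA only, and 1 *F*-cKO Ribo-seq library, replicate 2, lay far above the other 8.

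In *F*-cKO, 0 of 36 guidance genes were called in footprints by edgeR, where 0% of all 14335 genes were called, and DESeq2 called 0 members. At an unadjusted *P* below 0.05, edgeR gave 2 members higher and 0 lower (1.58% and 0.635% of all genes). Of the 36 differences, 34 were positive, with a median of 1.11 beside 0.05 for all genes. These values rested on replicate 2. Without it, 11 were positive and 25 negative, with a median of -0.11, and 0 members were called (0% of all genes were higher and 0.00698% lower) or had an unadjusted *P* below 0.05 (2.36% and 1.52%).

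In that library the median log2 ratio of the 36 genes to the Ctrl mean was 2.16, with 30 genes above 1, and in the other 8 libraries the median lay between -0.18 and 0.17. *Epha4* read 12.4, 66.8 and 11.2 RPKM in *F*-cKO replicates 1 to 3, *Slit1* 3.79, 25.1 and 3.49 RPKM, and *Efnb1* 11.03, 35.5 and 7.35 RPKM. The highest ratios there belonged to *Unc5b* (3.21), *Robo4* (3.16) and *Epha2* (3.15), and only *Epha6* and *Ntng1* (-0.08 each) were below 0. Summed EphA footprints reached 133 RPKM in this library, compared with 23.5 to 27.6 RPKM in Ctrl. Other lists were also high in it, with median ratios of 2.31 for 31 neural surface proteins, 2.22 for 30 semaphorins, plexins and neuropilins, 2.92 for 17 chaperones and translocon subunits of the endoplasmic reticulum (ER), 3.51 for 10 markers of endothelium and pericytes and 1.40 for 8 markers of meninges. The lists of signalling partners had medians of -0.05 for 29 Eph-ephrin, 0.45 for 18 Slit-Robo and 0.29 for 27 netrin signalling genes. In the RNA-seq library numbered *F*-cKO replicate 2, the 38 guidance genes kept in that assay had a median ratio of 0.09. What set the Ribo-seq library apart was not tested.

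**Figure D4:**
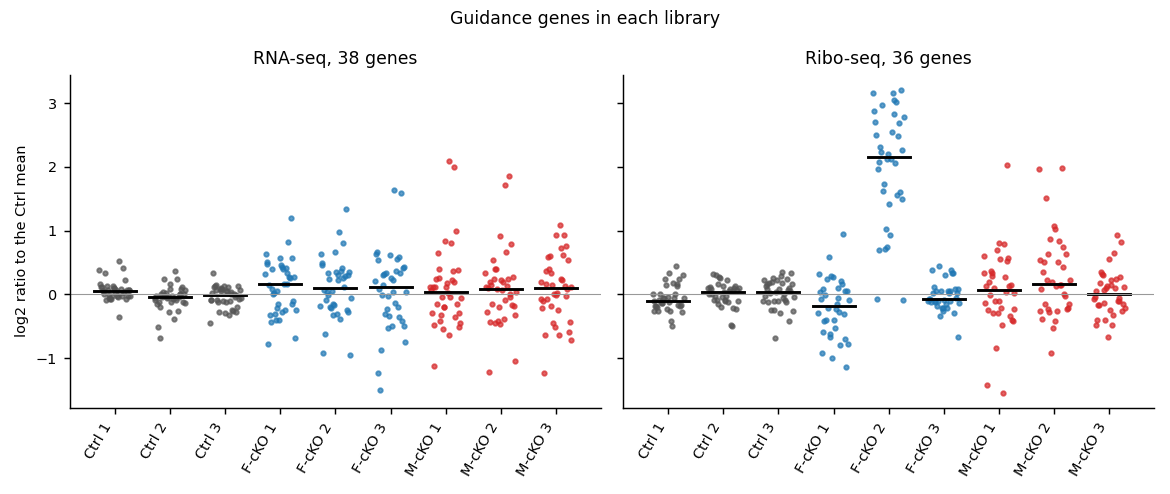
Log2 ratio of each guidance gene to its Ctrl mean in each library, RNA-seq and Ribo-seq, with points for genes and lines for medians. The Ribo-seq *F*-cKO replicate 2 median is 2.16, and the medians of the other 8 Ribo-seq libraries lie between -0.18 and 0.17.

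With that library in, 0 of 36 guidance genes were called in TE in *F*-cKO by edgeR (0% of all 13225 genes, and 0 members at an unadjusted *P* below 0.05, where 3.11% of all genes were higher and 6.18% lower) and 0 by DESeq2, and all 36 differences were positive with a median of 0.88. Leaving it out turned 24 of them negative (median -0.25), with 0 higher and 11 lower at an unadjusted *P* below 0.05 (6.14% and 7.62% of all genes). *Dcc* then had lower TE by a difference of -1.67 ± 0.21 (adjusted *P* = 0.0497, 95% interval -2.12 to -1.21), the single gene called among 13225 tested (0.00756%), beside 0.04 ± 0.94 with the library in. *Dcc* footprints were 5.76, 39.2 and 5.60 RPKM in *F*-cKO, so replicates 1 and 3 lay below all Ctrl libraries while *F*-cKO RNA lay above them. Without replicate 2, the *Dcc* footprint difference was -0.30 ± 0.14 (95% interval -0.63 to 0.02). *Epha4* TE also went from 0.94 ± 0.84 to -0.55 ± 0.13 without it, which was not called (adjusted *P* = 0.14). Between the knockouts, 0 members were called in footprints or in TE by edgeR or DESeq2, in both cases with 1 lower and 0 higher at an unadjusted *P* below 0.05 in edgeR, where 4.98% of all genes were higher and 3.11% lower in footprints, and 2.44% and 1.67% in TE. These values too rested on *F*-cKO replicate 2. The median difference of *M*-cKO from *F*-cKO was -0.84 in footprints and -0.72 in TE, and without that library it was 0.21 (27 of 36 positive) and 0.34 (31 of 36 positive). Without it 0 members were called in footprints or TE, where 0.0350% and 0.0380% of all genes were higher. At an unadjusted *P* below 0.05, 4 members were then higher and 0 lower in footprints (7.30% and 6.07% of all genes), and 13 higher and 0 lower in TE (7.82% and 3.36% of all genes).

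The level of TE in Ctrl, as the ratio of mean RPKM to mean FPKM, was low for most of these genes. The 2 tables were normalised separately, so the ratio ranks genes and has no absolute meaning. The median over 25038 genes was 0.790 and that of the 40 members 0.234, with 4 members above the median of all genes, namely *Ntn5* (2.01), *Dcc* (2.00), *Epha6* (1.70) and *Slit3* (1.27). *Ntn5* is near 0 in both assays, and at a minimum of 1 FPKM *Dcc* and *Slit3* were the 2 of 33 above the median. The lowest was *Unc5b* (0.0813), and the ephrin-A ligands (median 0.130) and EphB receptors (0.226) were lower than the EphA receptors (0.481). *Dcc* thus stood at 2.00 beside 0.0813 to 0.450 for the 4 UNC5 receptors of the same ligand. In other lists, the median ratio was 0.290 for neural surface proteins (0 of 31 above the median of all genes), 0.246 for semaphorins, plexins and neuropilins (1 of 31), 0.331 for ER chaperones (0 of 17), 0.275 for markers of endothelium and pericytes (1 of 10) and 1.36 for markers of meninges (6 of 8). Among the signalling partners it was 1.25 for the Eph-ephrin list (20 of 29 above), 0.668 for the Slit-Robo list (8 of 18) and 0.506 for the netrin list (11 of 27).

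**Figure D5:**
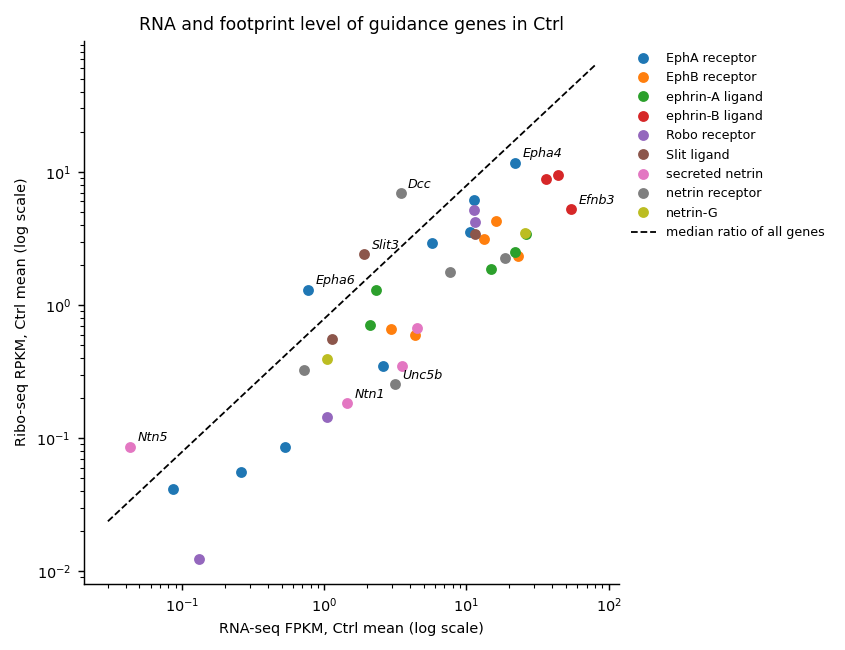
Ribo-seq mean RPKM against RNA-seq mean FPKM in Ctrl for the 40 guidance genes (both axes log scale, n = 3 libraries per assay), coloured by role, with a line at the median ratio of all genes, 0.790. *Dcc*, *Epha6*, *Slit3* and *Ntn5* lie above the line and the other 36 genes below it.

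The lists of signalling partners hold genes downstream of these receptors as well as co-receptors, ligands and other surface partners. In *F*-cKO RNA, 9 of 29 Eph-ephrin signalling genes rose and 2 fell, 3 of 18 Slit-Robo genes rose and 1 fell, and 5 of 27 netrin genes rose and 3 fell, 37.9%, 22.2% and 29.6% of each list, beside 21.1% of all genes tested. The largest rises were those of *Flrt1* (0.66 ± 0.12), a member of the FLRT family that binds UNC5 receptors, *Dock1* (0.51 ± 0.12), which activates Rac below DCC, and the kinase gene *Abl1* (0.47 ± 0.06). Among the genes that fell were *Ablim1* (-0.65 ± 0.11), which encodes an actin-binding protein, and *Vav3* (-0.64 ± 0.17), which encodes an exchange factor.

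In *M*-cKO RNA, 6 Eph-ephrin genes rose and 7 fell, 5 Slit-Robo genes rose and 4 fell, and 8 netrin genes rose and 6 fell, 44.8%, 50.0% and 51.9% of each list, beside 29.6% of all genes. *Flrt1* (1.08 ± 0.11), the adaptor gene *Nck1* (0.69 ± 0.11) and *Siah1b* (0.60 ± 0.11), a relative of the ligase that degrades DCC, rose most. *Vav3* (-0.90 ± 0.17), *Ablim1* (-0.77 ± 0.09) and *Trim9* (-0.67 ± 0.07), a ligase that interacts with DCC, fell most. In *M*-cKO footprints, 2 Eph-ephrin genes rose and 0 fell, 4 Slit-Robo genes rose and 3 fell, and 2 netrin genes rose and 4 fell (6.90%, 38.9% and 22.2% of each list, beside 14.6% of all genes), led by *Flrt1* (0.79 ± 0.14) and *Lrrc4c* (-0.82 ± 0.19), which encodes the netrin-G1 ligand NGL-1. TE was called for 2 listed partners in *M*-cKO, the Slit-Robo GTPase regulators *Myo9b* (0.85 ± 0.16) and *Arhgap39* (0.56 ± 0.12), both higher (11.1% of the Slit-Robo list and 0% of the other two, beside 3.07% of all genes). In *F*-cKO, 0 partners were called in footprints or TE, where 0% of all genes were called, and 0 partners were called in either without Ribo-seq *F*-cKO replicate 2. The median footprint difference from Ctrl went from 0.02 to 0.06 for the Eph-ephrin list, from 0.23 to -0.06 for the Slit-Robo list and from 0.13 to -0.10 for the netrin list when that library was left out.

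Reads cannot be assigned with certainty where genes overlap and strand is not stated for the counting. Of protein-coding genes, by their RefSeq coordinates, the gene span of *Epha1* overlaps *Zyx*, *Ntn3* overlaps *Tbc1d24*, *Ntn5* overlaps *Sec1*, *Epha5* overlaps *Gm42163*, and *Unc5a* overlaps *Hk3* by 34 bases. Many other members overlap non-coding genes, such as *Efna3* with *Gm15998* and *Ntng2* with *6530402F18Rik*, so their values are uncertain to the extent that such reads were counted.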

How the data were processed

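Libraries were grouped by the genotype and assay in the labels, which describe them as biological repeats. The study's methods give the Ribo-seq cortices as coming from "1 L", which may mean 1 litter, and no source says that libraries came from separate litters, so *P* values measure only the spread between these libraries. RNA-seq read counts per gene and FPKM were deposited by the authors, whose processing notes name HISAT2 2.0.5, DESeq2 1.14.1 and build mm10. The tool that counted RNA-seq reads is not given in the sources used here. For Ribo-seq, the authors mapped reads with TopHat2, made the deposited counts with HTSeq and computed RPKM from them. Symbols were assigned by gene identifier (54723 of 55153 genes matched), and coordinates were taken by symbol from RefSeq GRCm38.p6. Ribo-seq counts were blank in 8 libraries for 40490 genes, which were left out of tests, and 14348 genes were used.

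Counts were tested in R 4.3.3 with edgeR 4.0.16 (TMM scaling, filterByExpr with minimum count 10 and minimum total count 15, quasi-likelihood test, Benjamini-Hochberg adjustment over all genes), each comparison over its own libraries. Log2 ratios of single libraries used a pseudocount of 0.1 CPM. Alternatives were DESeq2 1.42.0, RLE scaling, no filter, 1 fit for all genotypes, a replicate block and each library left out. The code was tested on simulated data. Per-library values are given for at most 12 called members per comparison with Ctrl, by smallest *P*, and for *Epha4*, and at most 3 partners are named per direction. The members and lists were chosen with earlier results of these data known. Depth limits low genes such as *Ntn1* footprints and *Robo3*.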

Additional observations from a re-analysis of the deposited data

Results flagged for a closer look

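The RNA of 3 receptors was called in opposite directions against Ctrl in the 2 knockouts, and the direct edgeR comparison of *M*-cKO with *F*-cKO was called for each. Over 11 alternative settings, the *F*-cKO call of *Robo2* was lost in 5 and the *M*-cKO call of *Epha4* in 1. The log2 difference of *M*-cKO from *F*-cKO was -0.82 for *Epha4*, -0.84 for *Robo2* and -0.78 for *Unc5d*, with every *M*-cKO library below every *F*-cKO library. *Robo3*, whose Ribo-seq counts are blank in most libraries and entered no test, had a deposited footprint level of 0.133, 0.0601 and 0.0773 RPKM in *M*-cKO (mean 0.0901 RPKM), compared with 0.0196, 0.0116 and 0.00583 RPKM in Ctrl, and this difference was not tested. No formal test for an outlying sample was run on groups of 3 libraries.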

How the results depend on the processing

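Compared with Ctrl, leaving out 1 library gave 10 to 14 guidance genes higher and 2 to 7 lower in *F*-cKO RNA (8.92% to 20.0% of all genes called). The same in *M*-cKO RNA gave 6 to 10 higher and 7 to 9 lower (20.5% to 26.9%). With the spread of all genotypes in 1 fit, 0 guidance genes were called in *M*-cKO footprints and 0 in *M*-cKO TE (3 and 1 when that fit was run without Ribo-seq *F*-cKO replicate 2, an alternative chosen after seeing the data), and left-out libraries gave 0 to 3 and 0 to 1. *F*-cKO TE gave 0 to 1 lower, the 1 being *Dcc* without Ribo-seq *F*-cKO replicate 2. At a minimum of 1 FPKM, 2 guidance genes were above the median TE level. *Epha4* changed sign without being called, with ranges over left-out libraries of -0.014 to 1.99 in *F*-cKO footprints, -0.55 to 1.25 in *F*-cKO TE (both lowest without that library) and -0.055 to 0.088 in *M*-cKO TE, where DESeq2 gave -0.0036 and RLE scaling -0.0051. The cause was not tested. Calls and directions of named genes kept in 228 of 288 fits with a library left out and in 221 of 238 other fits, and the 60 and 17 others were 55 and 15 lost calls and 5 and 2 changes of sign, all of the last for *Epha4*.

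Correlations of same-numbered libraries, as deviations from group means, were -0.15 to -0.02 for *F*-cKO RNA, -0.09 to 0.18 for *M*-cKO RNA, -0.28 to 0.15 for *F*-cKO footprints and -0.02 to 0.14 for *M*-cKO footprints, each with Ctrl. Between the assays, the 3 Ctrl pairs were at 0.10 to 0.22, those of *F*-cKO at -0.26 to -0.02 and those of *M*-cKO at 0.06 to 0.26. All 3 Ctrl pairs between the assays were thus above 0.1, but in each comparison of genotypes at least 1 pair was below it, so the numbers were not taken to pair libraries. With the replicate block, *F*-cKO RNA gave 11 guidance genes higher and 3 lower (1275 and 855 of all genes, beside 1955 and 1621 without it), *M*-cKO RNA 8 and 8, and *M*-cKO footprints 3 and 0 (681 and 638 of all genes, beside 1020 and 1073), *M*-cKO TE 0 and 1 (231 and 149 of all genes) and *F*-cKO TE 0. Not called under the block were *Efna3*, *Epha6*, *Unc5a*, *Robo2*, *Unc5b* and *Ntn4* in *F*-cKO RNA and *Ephb4* in *M*-cKO RNA (adjusted *P* 0.051 to 0.11). Over all genes, DESeq2 called 1601 higher and 1500 lower in *M*-cKO footprints, and the fit of all genotypes 29 and 6. In *M*-cKO TE, these called 541 and 481, and 8 and 3, beside 249 and 156. DESeq2 called 5 and 1 in *F*-cKO footprints and 5 and 39 in *F*-cKO TE, where edgeR called 0, and between the knockouts 173 and 27 in footprints and 22 and 2 in TE. Low genes such as *Ntn1* (20 to 90 footprint counts per library) had wide errors, the source of which was not tested.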
